A study of Mus musculus with 21 samples.

Results

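The genes described are the potassium channel genes of the mouse brain, taken as the rows of the count table whose symbol begins with Kcn. Kcnj10 and symbols holding "os" or "Rik" were not included. Of 64361 genes in the table, 94 matched, and the 71 with a mean of at least 2 CPM over all 21 libraries, CPM being counts scaled to the library's total, were kept. The choice used a gene's mean over all libraries and no difference between groups. Kcna5 at 2.01 CPM and Kcnh5 at 2.05 CPM lay just above that minimum, and Kcnn4 at 2.00 CPM (89 counts in all) and Kcnmb1 at 1.78 CPM just under it.

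The study measured RNA by prime-seq, a bulk method that counts the 3′ ends of transcripts, in cortex and hippocampus of GA-Camk2a mice and controls. The line was used to ask how cholesterol and oligodendrocyte genes respond when the dipeptide repeat protein poly-GA is made in neurons and not in glia. In GA-Camk2a mice, labelled GACamk, a floxed transgene for GFP-tagged poly-GA is switched on by Cre under the Camk2a promoter, which drives it in excitatory neurons of the forebrain. The animals were of the C57BL/6J strain, were taken at 30 to 40 weeks when GA-Camk2a mice reached a humane endpoint, and came from 2 litters. The 4 groups were control cortex (5 mice), GA-Camk2a cortex (6 mice), control hippocampus (4 mice) and GA-Camk2a hippocampus (6 mice). These numbers follow the labels, whereas the study's text gives the control numbers of the tissues the other way round. The controls are labelled ctrl, and the labels do not say which of the transgene or Cre they carried. A mouse gave at most 1 library per tissue, the same 11 mice gave both tissues except that 1 control had no hippocampus library, and RNA was taken from the whole dissected tissue, so all its cell types entered the counts.

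Potassium channels let potassium ions leave a neuron and so set its resting potential, the length of its spikes and the rate at which it can fire again. The voltage-gated families (Kcna, Kcnb, Kcnc, Kcnd, Kcnq and Kcnh) open on depolarisation, the silent subunits (Kcnf, Kcng, Kcns and Kcnv) make no channel alone and alter Kcnb channels, and auxiliary subunits change the trafficking and gating of the pores they bind. Inward rectifiers (Kcnj) and two-pore channels (Kcnk) hold the resting potential, while Kcnma and Kcnn channels open when calcium enters.

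Library totals ranged from 1048201 to 5888102 counts, and the 71 members together took 1379 to 2521 CPM. The summed level of 5 hippocampal markers was 589 to 734 CPM in control hippocampus and 91.7 to 154 CPM in control cortex, and all 5 were called higher in hippocampus. The 5 cortex markers, Rorb among them, summed to 340 to 546 CPM in control cortex and 193 to 1551 CPM in control hippocampus. Of these, 3 were called lower and 1 higher in hippocampus in controls, and 3 lower and 2 higher in GA-Camk2a mice. The choroid plexus markers summed to 1805 to 32672 CPM in control hippocampus and 1835 to 55443 CPM in GA-Camk2a hippocampus. Rorb, a marker of cortical layer neurons and of thalamus, exceeded 1000 CPM in 3 hippocampus libraries (control mouse 11, GA-Camk2a mice 16 and 30). In control cortex, the library of mouse 31 was the highest of the 5 for 50 of the 71 members. The GFP row held 0 to 2 counts a library in control cortex, 0 to 4 in GA-Camk2a cortex, 0 in control hippocampus and 0 to 1 in GA-Camk2a hippocampus, and since prime-seq reads 3′ ends it checks the genotype only if that row covers the end of the transgene, which is not given in the sources used here.

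Start-site windows of 300 bases (250 before and 50 after the start) were read from RefSeq for GRCm38.p6 for 3 members that stand for the outcomes below. Kcnd2, which was lower in GA-Camk2a mice in both tissues, has its window at chr6:21215096-21215395 on the plus strand. Kcnab2, the 1 member that passed the test of a difference in genotype effect between the tissues, a call that was not stable, has its first of 3 listed windows at chr4:152477500-152477799 on the minus strand. Kcne1l, the 1 member called higher, has its window at chrX:142306149-142306448 on the minus strand. Each is written 5′ to 3′ along the gene, and capitals mark the CCAAT box (CCAAT), the GC box (GGGCGG) and the TATA box (TATAAA), read on both strands.
Kcnd2: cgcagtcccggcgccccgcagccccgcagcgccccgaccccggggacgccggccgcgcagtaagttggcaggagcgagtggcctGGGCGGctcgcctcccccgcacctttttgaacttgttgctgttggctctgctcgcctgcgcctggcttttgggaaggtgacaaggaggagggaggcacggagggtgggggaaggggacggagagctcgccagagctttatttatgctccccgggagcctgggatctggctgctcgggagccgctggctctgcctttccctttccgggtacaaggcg
Kcnab2: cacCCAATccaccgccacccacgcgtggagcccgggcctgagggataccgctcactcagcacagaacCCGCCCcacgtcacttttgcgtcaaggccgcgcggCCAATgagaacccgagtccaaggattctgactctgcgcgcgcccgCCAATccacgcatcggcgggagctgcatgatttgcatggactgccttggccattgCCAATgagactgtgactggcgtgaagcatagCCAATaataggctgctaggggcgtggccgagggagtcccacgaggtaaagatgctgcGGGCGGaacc
Kcne1l: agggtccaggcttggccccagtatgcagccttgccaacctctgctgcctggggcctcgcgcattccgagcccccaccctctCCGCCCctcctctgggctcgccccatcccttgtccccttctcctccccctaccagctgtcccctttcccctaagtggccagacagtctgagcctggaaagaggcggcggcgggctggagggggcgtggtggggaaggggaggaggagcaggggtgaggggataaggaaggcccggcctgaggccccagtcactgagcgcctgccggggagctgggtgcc

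The Kcnab2 window held 5 CCAAT and 2 GGGCGG matches, and those of Kcnd2 and Kcne1l held 1 GGGCGG match each. Windows were listed for 50 of the 71 members. In the first window of each, GGGCGG was found in 52%, CCAAT in 34% and TATAAA in 4%, against 35.7%, 37.4% and 13.6% of all 32851 windows of that length. Their median GC content was 59.3%, against 52.7% over all windows. A match is a run of letters and was not tested as a binding site.

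Many potassium channel transcripts were lower in the cortex of GA-Camk2a mice. Of the 56 members with enough counts to be tested there, 22 fell (39.3%) and 1 rose (1.79%) at an adjusted p under 0.05 in edgeR's quasi-likelihood test with batch as a term. Over all 13058 genes tested, 12.5% were called, 6.17% lower and 6.35% higher. The median log2 fold change of the 56 members was -0.432, against -0.00503 over all genes, and 48 of the 56 values were negative. In 11 members all 6 GA-Camk2a libraries lay below all 5 controls, a share of 19.6% against 2.67% of all genes, and in 1 member they all lay above, against 3.5%. The 15 untested members had few counts, and with no filter on low counts 21 of all 71 fell and 1 rose.

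Leaving out the control library of mouse 31 left 13 members called, all lower, with a median of -0.335. Kcna1, Kcnc4, Kcnd2, Kcne1l, Kcnf1, Kcnj4, Kcnj9, Kcnk4, Kcnq5 and Kcns2 were then no longer called. Leaving out any other single library gave 19 to 26 calls. In batch 1 alone (3 controls and 4 GA-Camk2a mice) 15 members were called, all lower, with a median of -0.451. In batch 2 alone (2 and 2) there were 2, Kcnk2 and Kcnv1, with a median of -0.326.

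In the hippocampus fewer channel genes passed the test. Of 64 members tested, 10 fell (15.6%), while over all 14884 genes tested 10.9% were called, 5.97% lower and 4.97% higher. The share of members called was thus near that of all genes, and all 10 calls were falls. No member rose in edgeR, where 2 were higher at an unadjusted p under 0.05, or in DESeq2 and limma-voom, while 1 did in edgeR with upper quartile scaling (Kcnq1ot1) and 1 without GA-Camk2a mouse 30 (Kcne1l). The median log2 fold change was -0.143, against 0.0162 over all genes, and 40 of 64 values were negative. In 7 members (10.9%) the groups did not overlap with GA-Camk2a below, against 4.02% of all genes, and in 1 (1.56%) with GA-Camk2a above, against 5.6%. In batch 1 alone Kcnab2 and Kcnip2 were called with a median of -0.136 over the members tested, and in batch 2 alone 4 members, Kcnab2, Kcnd2 and Kcnip2 among them, with a median of -0.233. Without the 3 libraries highest in choroid plexus markers (GA-Camk2a mice 16, 30 and 35) 8 members were called, and Kcnd2, Kcnmb4 and Kcns2 were among those no longer called. Without the 3 libraries over 1000 CPM of Rorb 8 were called as well, and Kcnd2, Kcnmb4 and Kcnv1 were among those lost.

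**Figure D1:**
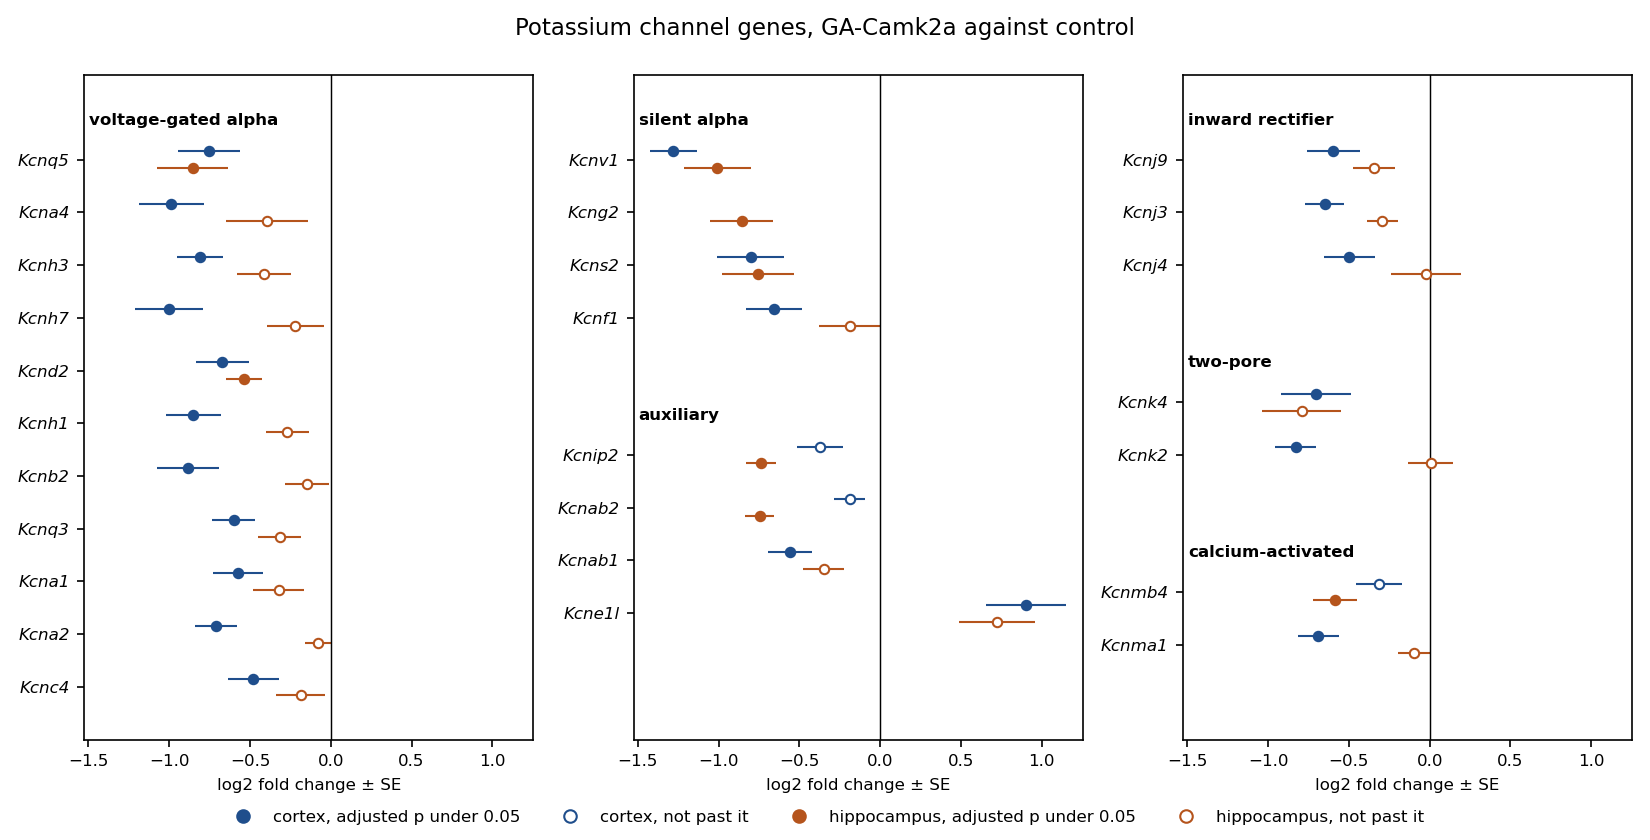
Log2 fold change of GA-Camk2a against control in cortex and in hippocampus for the members named in the text that were called in either tissue or in the difference, from edgeR, with bars of 1 standard error and filled points for an adjusted p under 0.05. Most points lie left of 0 in both tissues, Kcnv1 farthest in cortex at -1.28, and Kcne1l is the 1 called point to the right.

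Markers of several cell types differed between the same libraries. Excitatory neuron markers summed to 926 to 1379 CPM in control cortex and 718 to 901 CPM in GA-Camk2a cortex, with 4 of 6 called lower, and to 1423 to 1789 CPM and 714 to 945 CPM in hippocampus, with 5 of 6 lower. Inhibitory neuron markers summed to 985 to 1058 CPM in control cortex and 1095 to 1473 CPM in GA-Camk2a cortex, with no overlap and 1 of 6 called, Vip, higher at 1.31 on the log2 scale. In hippocampus they summed to 794 to 911 CPM and 726 to 1155 CPM, with Vip at 1.16 and Gad2 at 0.40 called higher. Microglia markers rose from 201 to 215 CPM in control cortex to 411 to 620 CPM, and from 181 to 206 CPM to 285 to 430 CPM in hippocampus, with 5 of 7 called higher in each. Astrocyte markers rose from 1570 to 1978 CPM to 2616 to 3795 CPM in cortex (4 of 6 called) and from 1757 to 2057 CPM to 3191 to 4354 CPM in hippocampus (5 of 6). Striatal markers, genes of the tissue that lies under the cortex, summed to 355 to 542 CPM in control cortex and 122 to 210 CPM in GA-Camk2a cortex, with 7 of 7 lower. No gene of these lists was at 0 throughout a group. Their part in the channel results was not tested, and in bulk RNA fewer cells of a type and less RNA per cell cannot be told apart.

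The voltage-gated alpha subunits held most of the cortical falls. Of 24 members, 19 were tested in cortex and 12 fell, with a median log2 fold change of -0.602. In hippocampus 20 were tested and 4 fell, with a median of -0.215. Their summed level was 773 ± 180.4 CPM (SD, n = 5) in control cortex, 564 ± 40.8 CPM (SD, n = 6) in GA-Camk2a cortex, 794 ± 64.2 CPM (SD, n = 4) in control hippocampus and 683 ± 73.8 CPM (SD, n = 6) in GA-Camk2a hippocampus. Below, a value after ± that follows a level in CPM is the SD over the 5 or 4 control or 6 GA-Camk2a libraries. The control cortex sum ran from 639 to 1090 CPM, the upper end being the library of mouse 31.

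**Figure D2:**
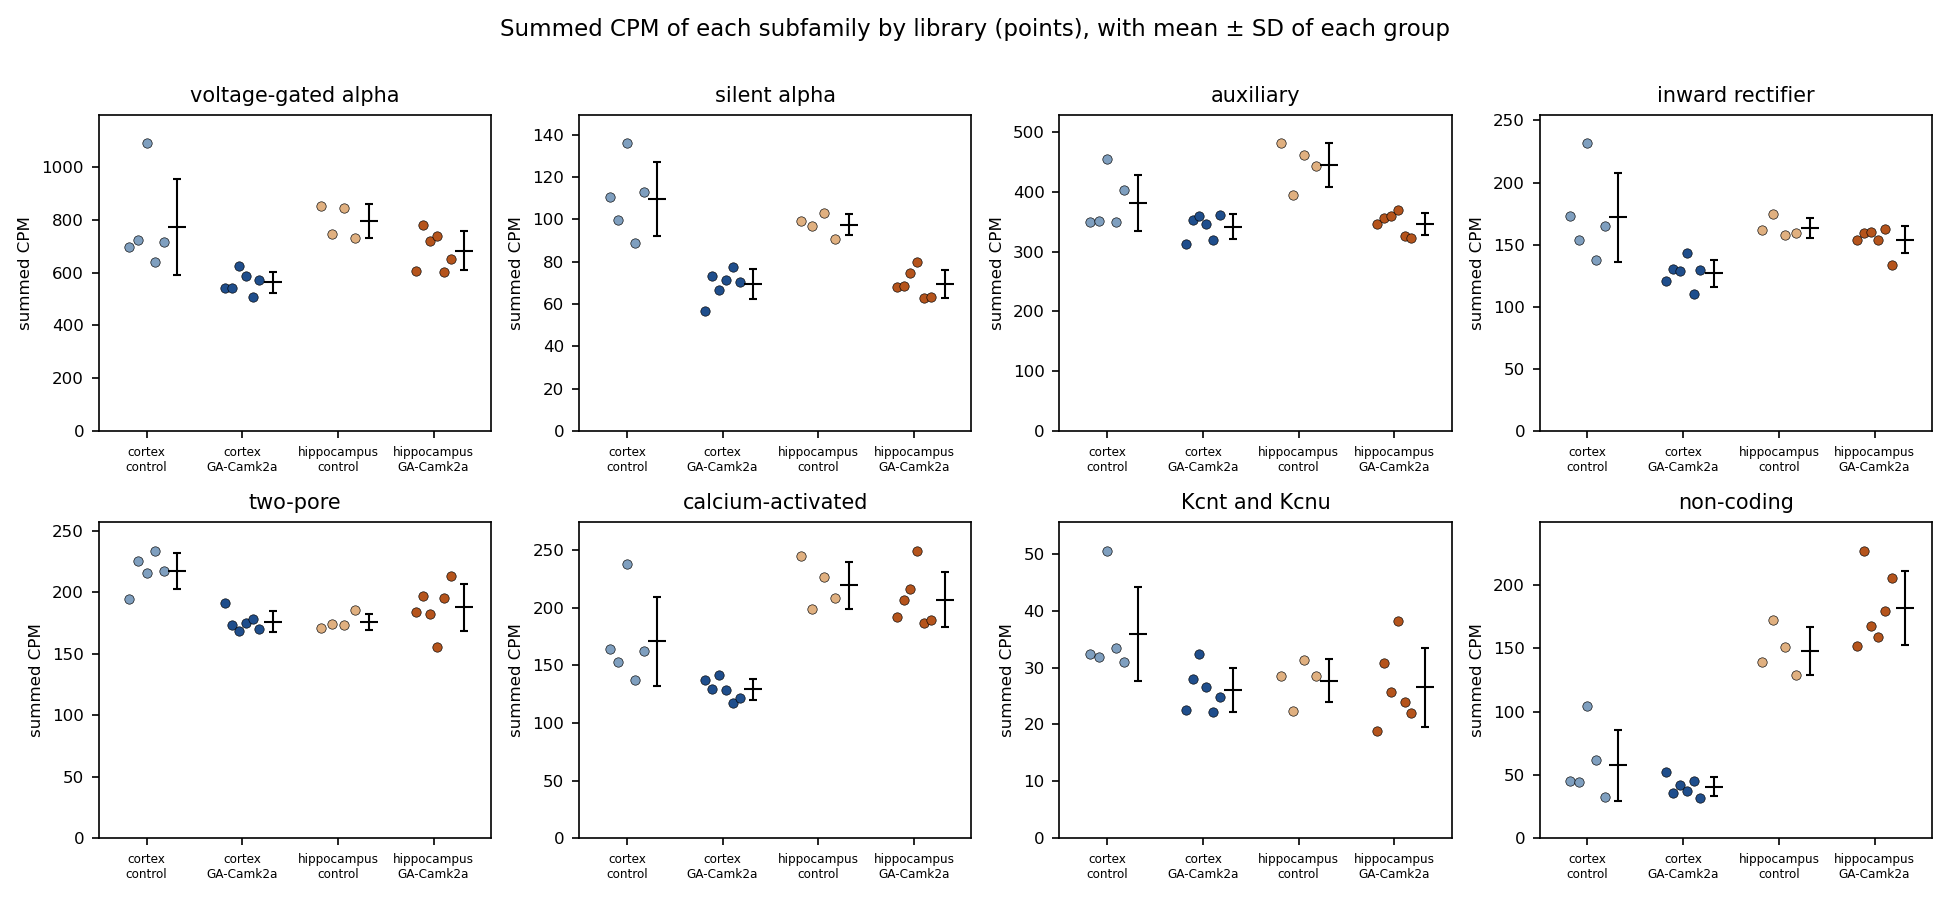
Summed CPM of the members of each subfamily in every library, by tissue and genotype, with the mean and SD of each group beside the points. In cortex the silent alpha sums of GA-Camk2a mice, up to 77.5 CPM, lie below those of all controls, from 88.6 CPM.

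Kcnd2 carries the fast-inactivating A-type current of dendrites. Control cortex libraries of mice 11, 20, 31, 37 and 38 (the order used for every control cortex gene) held 41, 45.4, 64.9, 39 and 32.4 CPM, and GA-Camk2a cortex libraries 23.3 to 35.3 CPM (median 25). In hippocampus the controls of mice 11, 20, 31 and 37 held 60.7, 59.1, 62.1 and 52.2 CPM and the GA-Camk2a libraries 31.9 to 50.1 CPM (median 41.1). The groups overlapped in cortex and did not overlap in hippocampus. Kcnd2 fell in both (log2 fold change -0.67 ± 0.162 (SE), adjusted p = 0.00784 in cortex, and log2 fold change -0.53 ± 0.112 (SE), adjusted p = 0.00578 in hippocampus), and its hippocampal call was lost with thinned counts, in batch 1 alone and in the fits that left out the libraries high in choroid plexus markers or in Rorb. Over all its other fits the hippocampal log2 fold change ran from -0.610 to -0.0778, with adjusted p up to 0.905 in edgeR.

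The Kcnq genes make the M-current, which damps repetitive firing. Kcnq5 stood at 18.1, 20.0, 33.3, 12.2 and 20.2 CPM in control cortex and 8.09 to 14.7 CPM (median 12.8) in GA-Camk2a cortex. Hippocampal controls held 29.2, 21.7, 13.7 and 22.6 CPM against 6.67 to 19.1 CPM (median 12.8). The groups overlapped in both tissues, and the gene fell in cortex (log2 fold change -0.76 ± 0.192 (SE), adjusted p = 0.0112) and in hippocampus (log2 fold change -0.85 ± 0.219 (SE), adjusted p = 0.0203). Its cortical call ended without control mouse 31 (adjusted p = 0.0937) and its hippocampal call without control mouse 11 or 20 (up to 0.10). Kcnq3 fell in cortex from 50.4 ± 9.15 to 33.4 ± 7.62 CPM (log2 fold change -0.60 ± 0.131 (SE), adjusted p = 0.00347), and its hippocampal value was -0.32 (adjusted p = 0.152).

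Among the Kcnh genes, kin of the ether-a-go-go channel of flies, 3 of the 4 tested in cortex fell. Kcnh7 held 17.2, 18.2, 37.7, 15.2 and 23.6 CPM in control cortex and 9.49 to 16.2 CPM (median 10.7) in GA-Camk2a cortex, with overlap (log2 fold change -1.0 ± 0.211 (SE), adjusted p = 0.00268). Kcnh1 held 27.7, 19.1, 30.8, 18.2 and 24.9 CPM against 10.8 to 16.4 CPM (median 12.9), with no overlap (log2 fold change -0.85 ± 0.171 (SE), adjusted p = 0.0018). Kcnh3 held 36.3, 43.6, 49.8, 27.3 and 36.6 CPM against 17.1 to 26.6 CPM (median 21.7), also with no overlap (log2 fold change -0.81 ± 0.145 (SE), adjusted p = 0.000617). In hippocampus none of the 3 passed the edgeR test, at -0.22 (adjusted p = 0.482) for Kcnh7, -0.27 (adjusted p = 0.225) for Kcnh1 and -0.41 (adjusted p = 0.13) for Kcnh3, and their hippocampal ranges overlapped. Kcnh7 shares exon bases on the opposite strand with Gca and Kcnh3 with Mcrs1, so their counts are uncertain if strand was not used. Kcnh4 had too few counts for the cortical test but did not overlap there either, at 3.6 to 5.86 CPM (median 4.54) in controls and 0 to 3.04 CPM (median 2.21) in GA-Camk2a mice. Kcnh4 met the 2 CPM minimum largely through control cortex. Striatal markers were also lower in GA-Camk2a cortex, and their part in the Kcnh4 values was not tested.

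Kcna genes form the low-threshold channels of axons and their endings. Kcna4 held 9.54, 10.9, 15, 14.2 and 13.6 CPM in control cortex and 5.25 to 8.09 CPM (median 6.6) in GA-Camk2a cortex with no overlap (log2 fold change -0.99 ± 0.203 (SE), adjusted p = 0.00216), and in hippocampus it ranged over 10.7 to 21.1 CPM (median 14.4) and 6.69 to 20.6 CPM (median 10.0), which did not pass (adjusted p = 0.368). Kcna2 fell from 86.2 ± 23.8 to 53.4 ± 6.49 CPM in cortex, again with no overlap (log2 fold change -0.71 ± 0.13 (SE), adjusted p = 0.000767). Its hippocampal value was -0.08 (adjusted p = 0.596). Kcna1 fell in cortex from 45.8 ± 12 to 31.3 ± 5.76 CPM (log2 fold change -0.57 ± 0.154 (SE), adjusted p = 0.0155), a call lost without control mouse 31 (adjusted p = 0.107). Kcna6 did not pass in either tissue, at 0.26 (adjusted p = 0.151) in cortex and 0.20 (adjusted p = 0.438) in hippocampus.

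The Kcnb genes carry the main delayed rectifier of the neuronal cell body. Kcnb2 held 21, 10.9, 28.6, 16.2 and 20.8 CPM in control cortex and 8.1 to 17.5 CPM (median 10.3) in GA-Camk2a cortex, where the groups overlapped (log2 fold change -0.88 ± 0.194 (SE), adjusted p = 0.0037). It did not pass in hippocampus, at -0.15 (adjusted p = 0.556). Of the Kcnc genes, which let fast-spiking neurons repolarise quickly, Kcnc4 fell in cortex (log2 fold change -0.48 ± 0.157 (SE), adjusted p = 0.0472). Kcnc1 stood at 64.6 ± 14.7 and 64.1 ± 9.36 CPM in cortex (log2 fold change -0.033 ± 0.127 (SE), adjusted p = 0.907) and did not pass in hippocampus either, at -0.11 (adjusted p = 0.624). The call of Kcnc4 was lost in 8 of 11 fits that left out 1 library (adjusted p up to 0.162).

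Of the 8 silent subunits, 7 were tested in cortex with 3 lower and a median of -0.406, and 8 in hippocampus with 3 lower and a median of -0.563. Kcnv1, which assembles with Kcnb subunits and shifts their gating, showed the largest cortical fall of all members tested. Control cortex held 42.9, 41.8, 42.5, 31.9 and 44.9 CPM, and GA-Camk2a cortex 12.6 to 19.2 CPM (median 17.7). Control hippocampus held 31.2, 18, 25.1 and 18 CPM, and GA-Camk2a hippocampus 7.47 to 14.2 CPM (median 12.2). No GA-Camk2a library reached a control library of its tissue. The fitted level was 0.412 times that of controls in cortex (log2 fold change -1.28 ± 0.146 (SE), adjusted p = 2.7e-06) and 0.497 times in hippocampus (log2 fold change -1.01 ± 0.206 (SE), adjusted p = 0.00496). The cortical call held in all 21 other fits, and the hippocampal call was lost in 4 of 12 fits other than those without 1 library, with thinned counts, in either batch alone and without the libraries over 1000 CPM of Rorb (adjusted p up to 0.135).

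Kcns2 held 10.5, 10.9, 15, 11.1 and 11.1 CPM in control cortex and 4.55 to 8.75 CPM (median 6.45) in GA-Camk2a cortex, with no overlap. Hippocampal controls held 9.42, 11.4, 10.3 and 12.5 CPM and GA-Camk2a libraries 3.9 to 9.76 CPM (median 6.29), which overlapped. It fell in both tissues (log2 fold change -0.80 ± 0.207 (SE), adjusted p = 0.0125 in cortex, and log2 fold change -0.76 ± 0.223 (SE), adjusted p = 0.0397 in hippocampus), and the cortical call was lost without control mouse 31 (adjusted p = 0.0623) and the hippocampal call in 7 of 10 fits that left out 1 library (up to 0.151). Kcng2, a silent subunit with few cortical counts, held 15.9, 15.1, 23.9 and 14.6 CPM in control hippocampus, mouse 31 being the highest, against 7.1 to 13.2 CPM (median 8.93) with no overlap (log2 fold change -0.86 ± 0.195 (SE), adjusted p = 0.0101). In cortex it was too low to test, at 0.954 to 5.86 CPM and 1.8 to 5.6 CPM. Kcnf1 fell in cortex from 28.3 ± 6.91 to 18.3 ± 4.5 CPM (log2 fold change -0.66 ± 0.176 (SE), adjusted p = 0.0154), a call lost without control mouse 31 (adjusted p = 0.0936), and its hippocampal value was -0.19 (adjusted p = 0.599).

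Among the 9 auxiliary subunits, Kcnab1 fell and Kcne1l rose in cortex, and Kcnab2 and Kcnip2 fell in hippocampus. In cortex 8 were tested, with 1 lower, 1 higher and a median of -0.15, and in hippocampus 9, with 2 lower and a median of 0.169. Kcnab2, a beta subunit that helps bring Kcna channels to the axon, held 201, 164, 200 and 187 CPM in control hippocampus and 99.4 to 135 CPM (median 114) in GA-Camk2a hippocampus. In cortex the values were 107, 114, 152, 97.7 and 141 CPM against 89.9 to 124 CPM (median 111). The hippocampal groups were apart and the cortical groups overlapped. Kcnab2 fell in hippocampus to a fitted 0.596 times the control level (log2 fold change -0.75 ± 0.0899 (SE), adjusted p = 9.68e-05) and did not pass in cortex (log2 fold change -0.19 ± 0.0956 (SE), adjusted p = 0.215). It shares exon bases on the same strand with the gene model Gm16334, so its counts are uncertain to that extent.

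Kcnip2 is a calcium-binding subunit of Kcnd channels. Control hippocampus held 73.7, 52.1, 61.5 and 66.1 CPM and GA-Camk2a hippocampus 32.3 to 43.3 CPM (median 39.5), with no overlap (log2 fold change -0.74 ± 0.0948 (SE), adjusted p = 0.000145). Control cortex held 36.3, 42.7, 56.8, 40.5 and 34.9 CPM against 19.8 to 37.8 CPM (median 33.2), which overlapped and did not pass (log2 fold change -0.37 ± 0.145 (SE), adjusted p = 0.0994). Kcnab2 and Kcnip2 kept their hippocampal calls in all 22 other fits. Kcnab1, the other beta subunit among the members with the most counts, fell in cortex from 64 ± 11.6 to 44 ± 8.2 CPM (log2 fold change -0.56 ± 0.135 (SE), adjusted p = 0.00774), and its hippocampal value was -0.35 (adjusted p = 0.0936).

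Kcne1l, a small membrane subunit known to hold back Kcnq1 channels, was the 1 member called higher. Control cortex held 6.68, 7.27, 3.66, 4.56 and 6.93 CPM and GA-Camk2a cortex 8.05 to 14.9 CPM (median 9.94), with no overlap (log2 fold change 0.90 ± 0.25 (SE), adjusted p = 0.019). In hippocampus the controls held 3.9, 4.25, 5.7 and 5.7 CPM and GA-Camk2a libraries 6.13 to 11 CPM (median 8.1), again with no overlap, but the test was not passed (log2 fold change 0.72 ± 0.234 (SE), adjusted p = 0.0616) except without GA-Camk2a mouse 30. The cortical call was lost without control mouse 31, control mouse 37 or GA-Camk2a mouse 23 (adjusted p up to 0.102).

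**Figure D3:**
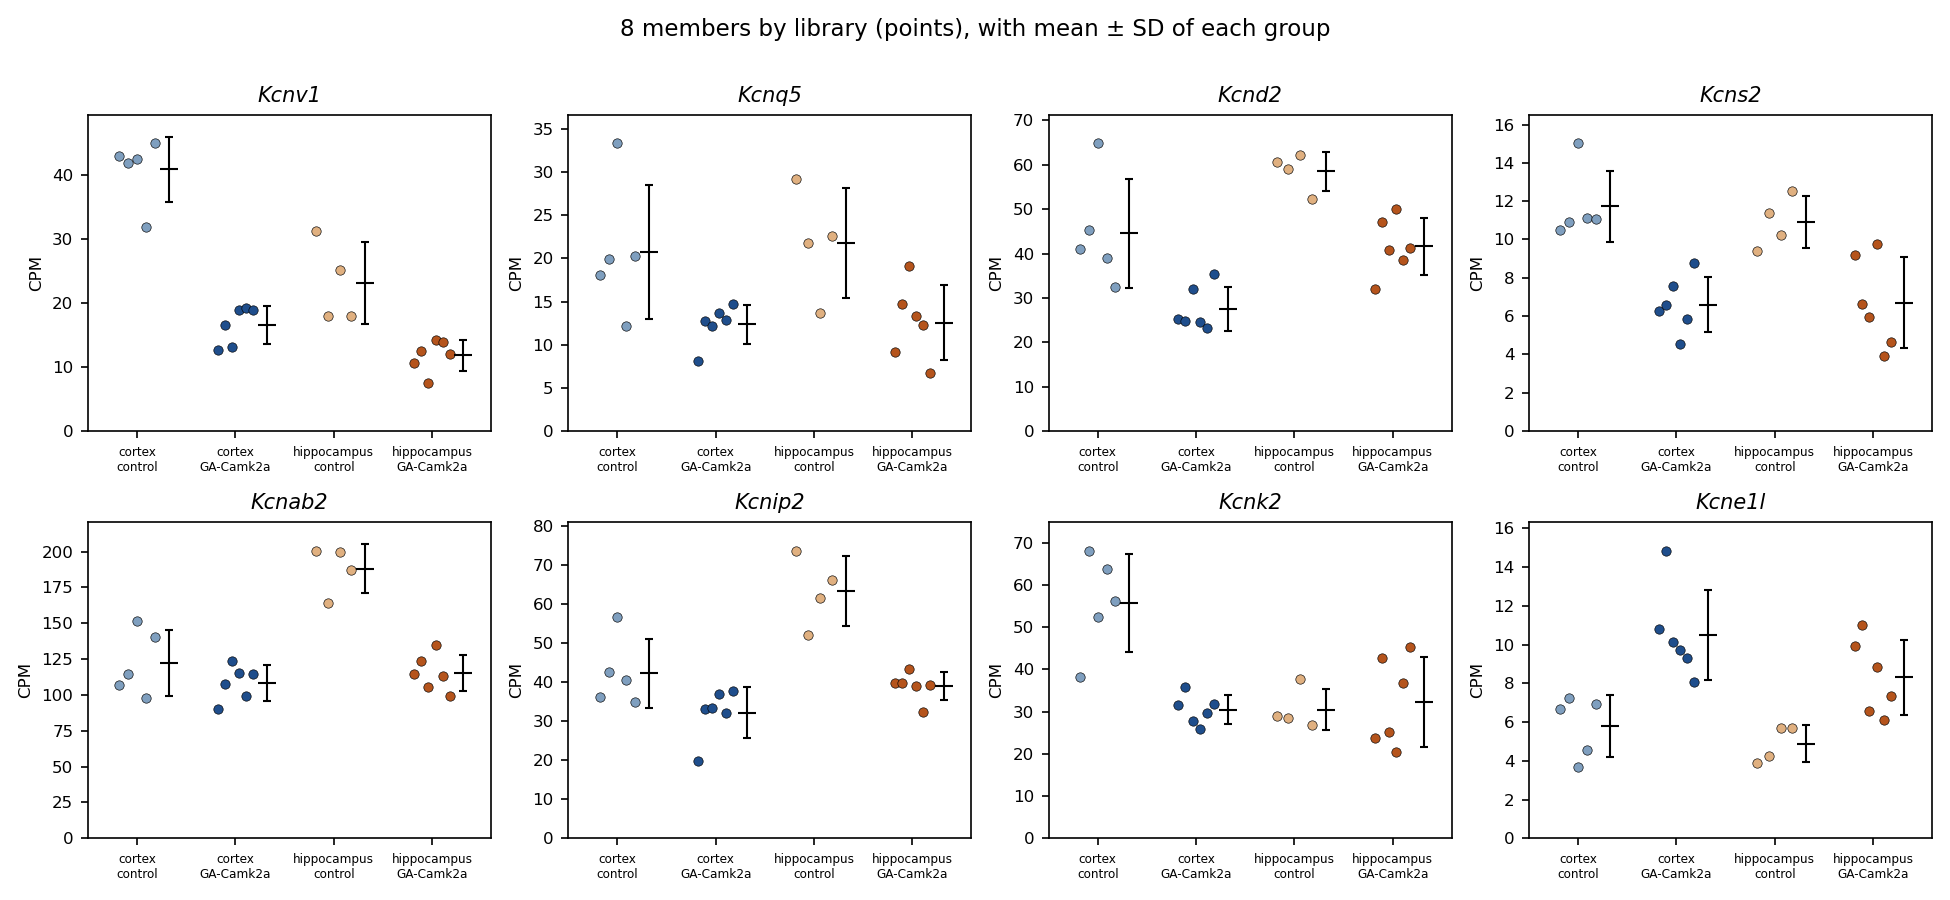
CPM of 8 members in every library by tissue and genotype, with the mean and SD of each group beside the points. GA-Camk2a libraries of Kcnv1 lie below all controls in both tissues, those of Kcnab2 and Kcnip2 in hippocampus, those of Kcnk2 in cortex, and those of Kcne1l lie above the controls in both.

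Of the inward rectifiers, Kcnj3, Kcnj4 and Kcnj9 fell in cortex. Of 10 members, 6 were tested in cortex with 3 lower and a median of -0.511, and 9 in hippocampus with none called by edgeR (3 lower at an unadjusted p under 0.05) and a median of -0.0229. Kcnj3, a subunit of the channels that G proteins open, fell from 62.9 ± 12.9 to 40.8 ± 6.41 CPM in cortex without overlap (log2 fold change -0.65 ± 0.121 (SE), adjusted p = 0.000869). Kcnj9, which assembles with it, fell from 33 ± 12 to 22.6 ± 1.49 CPM, also without overlap (log2 fold change -0.60 ± 0.166 (SE), adjusted p = 0.0197), a call lost without control mouse 31 (adjusted p = 0.145). Kcnj4, a strong rectifier, fell from 23.2 ± 6.11 to 16.7 ± 2.91 CPM (log2 fold change -0.50 ± 0.158 (SE), adjusted p = 0.0421), a call lost in 8 of 11 fits without 1 library (adjusted p up to 0.195). Hippocampal values were -0.29 (adjusted p = 0.0638) for Kcnj3, -0.35 (adjusted p = 0.106) for Kcnj9 and -0.023 (adjusted p = 0.97) for Kcnj4.

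Two-pore channels give the background potassium leak. In cortex 8 of 10 members were tested, with 2 lower and a median of -0.242, and in hippocampus 9, with none called by edgeR (1, Kcnk4, lower at an unadjusted p under 0.05) and a median of 0.0557. Kcnk2, a leak channel that responds to stretch and lipids, held 38.2, 68.1, 52.4, 63.8 and 56.2 CPM in control cortex against 26 to 35.9 CPM (median 30.6) in GA-Camk2a cortex, with no overlap (log2 fold change -0.83 ± 0.126 (SE), adjusted p = 0.000103). In hippocampus it held 28.9, 28.5, 37.6 and 26.9 CPM against 20.4 to 45.4 CPM (median 30.9), with overlap (log2 fold change 0.0054 ± 0.137 (SE), adjusted p = 0.99). The cortical call of Kcnk2 held in all 21 other fits. Kcnk4 stood at 10.5 ± 1.92 and 6.08 ± 0.888 CPM in cortex (log2 fold change -0.70 ± 0.215 (SE), adjusted p = 0.034) and at 9.14 ± 1.77 and 5.02 ± 1.46 CPM in hippocampus (log2 fold change -0.79 ± 0.244 (SE), adjusted p = 0.0501). The hippocampal value of Kcnk4 lay at the threshold and was called lower in 7 other fits, among them those with no batch term, with no filter on low counts and without the libraries high in choroid plexus markers or in Rorb. Its groups did not overlap in either tissue, its cortical call was lost in 7 of 11 fits without 1 library (adjusted p up to 0.0824), and it shares exon bases on the same strand with Catsperz. Kcnk1, the two-pore member with the most counts, did not pass, at 86 ± 12.5 and 82.4 ± 5.87 CPM in cortex (log2 fold change -0.073 ± 0.109 (SE), adjusted p = 0.728) and 0.056 (adjusted p = 0.86) in hippocampus.

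Of the 6 calcium-activated members, 5 were tested in cortex with 1 lower and a median of -0.0487, and 6 in hippocampus with 1 lower and a median of -0.12. Kcnma1, the pore of the large-conductance channel, fell in cortex from 100.2 ± 26.1 to 62.8 ± 6.33 CPM with no overlap (log2 fold change -0.69 ± 0.125 (SE), adjusted p = 0.000718), while in hippocampus it stood at 120.1 ± 17.3 and 115 ± 9.2 CPM (log2 fold change -0.10 ± 0.0967 (SE), adjusted p = 0.587). Kcnmb4, the beta subunit that neurons pair with that pore, held 34.1, 29, 29.1 and 33.1 CPM in control hippocampus and 16.9 to 29.7 CPM (median 20.0) in GA-Camk2a hippocampus, which overlapped (log2 fold change -0.59 ± 0.136 (SE), adjusted p = 0.0111). In cortex Kcnmb4 held 31.5, 33.6, 44, 27.3 and 30.2 CPM against 22.7 to 34.2 CPM (median 26.2) (log2 fold change -0.31 ± 0.142 (SE), adjusted p = 0.162). So the pore passed in cortex alone and its subunit in hippocampus alone, and neither passed the test of the difference between tissues (adjusted p = 0.15 and 0.677). Kcnn2, a small-conductance channel, did not pass, at -0.049 (adjusted p = 0.881) in cortex and 0.053 (adjusted p = 0.888) in hippocampus.

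Of the Kcnt and Kcnu genes, Kcnt1 and Kcnt2 were tested in both tissues and Kcnu1 in neither. Neither was called by edgeR in cortex (both lower at an unadjusted p under 0.05), at -0.45 (adjusted p = 0.070) for Kcnt1 and -0.69 (adjusted p = 0.0669) for Kcnt2, or in hippocampus, at -0.00044 (adjusted p = 1.0) and -0.24 (adjusted p = 0.41). In cortex Kcnt2 was called lower in 1 fit over all libraries and without control mouse 38. Kcnq1ot1 is a non-coding RNA transcribed across Kcnq1 and makes no channel, but its symbol meets the rule. It did not pass in cortex (log2 fold change -0.54 ± 0.21 (SE), adjusted p = 0.103), where the controls held 44.8, 44.5, 104, 61.8 and 32.7 CPM, or in hippocampus (log2 fold change 0.25 ± 0.0802 (SE), adjusted p = 0.0628).

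Both tissues together, 29 members were called in at least 1 of them and 4 in both, Kcnd2, Kcnq5, Kcns2 and Kcnv1, all lower. These were 45.3% of the 64 members tested in either tissue, against 17.2% of all genes, and 7.14% of the 56 tested in both, against 2.52% of all genes lower in both. No member was called higher in both, against 2.73% of all genes. The 4 made up 18.2% of the members lower in cortex and 40% of those lower in hippocampus, against 40.4% and 36.7% over all genes called lower. That a member passed in 1 tissue and not in the other does not show that its effect differed, and the difference was tested in 1 fit over all 21 libraries. Of 63 members tested, 1 passed (1.59%), against 0.4% of 14751 genes. For Kcnab2 the hippocampal effect was lower than the cortical by 0.58 on the log2 scale (log2 fold change -0.58 ± 0.128 (SE), adjusted p = 0.0337). With the mouse as a block the value was -0.62 with an adjusted p of 0.0432 in edgeR. Kcnab2 lost this call in 18 of the 21 fits without 1 library, with adjusted p up to 0.157, with no batch term, with no filter on low counts, with thinned counts, within either batch and without the libraries high in choroid plexus markers or in Rorb, so the call of a difference was not stable. Kcnk2 (log2 fold change 0.80 ± 0.193 (SE), adjusted p = 0.0609) and Kcna2 (log2 fold change 0.60 ± 0.156 (SE), adjusted p = 0.0913) did not pass, but other fits called them, Kcnk2 with DESeq2's size factors, in limma-voom and without control cortex mouse 11, GA-Camk2a cortex mouse 23 or GA-Camk2a hippocampus mouse 34, and Kcna2 in DESeq2 and without control cortex mouse 11. With no filter on low counts Kcnq1ot1 was the 1 member called, its genotype effect higher in hippocampus than in cortex. The median difference over the members was 0.209, hippocampus less negative, against -0.0177 over all genes, and in batch 2 alone it was -0.00515.

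In control mice, hippocampus and cortex differed in 20 of 63 members tested. Of these, 9 were higher in hippocampus (14.3%) and 11 lower (17.5%), while over all 14435 genes 16.3% were called, 8.69% higher and 7.6% lower. The balance rested on control cortex mouse 31, without which 15 were higher and 10 lower, and in batch 2 alone 8 were higher and 4 lower. Without control cortex mouse 37, 6 were higher and 11 lower. The largest rises were Kcng2 from 2.94 ± 1.86 to 17.4 ± 4.4 CPM (log2 fold change 2.23 ± 0.284 (SE), adjusted p = 3.87e-05), Kcnj13, Kcnq1ot1, Kcnn3, Kcnj6 and Kcnn2. Kcnq1ot1 rose from 57.6 ± 28 to 148 ± 18.7 CPM (log2 fold change 1.27 ± 0.219 (SE), adjusted p = 0.000657). The small-conductance calcium-activated channels Kcnn2 (log2 fold change 0.85 ± 0.121 (SE), adjusted p = 0.000117) and Kcnn3 (log2 fold change 1.26 ± 0.259 (SE), adjusted p = 0.00262), which shape the pause after a spike, were both higher in hippocampus. Kcnj6, a G-protein-gated rectifier, rose from 4.28 ± 2.78 to 9.31 ± 1.57 CPM (log2 fold change 1.08 ± 0.302 (SE), adjusted p = 0.0206), a call lost in 4 of 9 fits without 1 library (adjusted p up to 0.0741).

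The largest falls from cortex to hippocampus were Kcnh4, Kcnab3, Kcnj4, Kcnk2, Kcnv1 and Kcnf1. Kcnh4 stood at 4.57 ± 0.854 CPM in control cortex and 0.916 ± 0.468 CPM in control hippocampus (log2 fold change -2.13 ± 0.392 (SE), adjusted p = 0.0011). Its median was 2.21 CPM in GA-Camk2a cortex, 0.749 CPM in control hippocampus and 1.72 CPM in GA-Camk2a hippocampus. So Kcnh4 met the 2 CPM minimum largely through control cortex, the group where it is high. Striatal markers were 355 to 542 CPM in control cortex and 78.1 to 119.7 CPM in control hippocampus, with 7 of 7 lower in hippocampus, and their part in the Kcnh4 value was not tested. Kcnab3, a further beta subunit, fell to 0.388 of the cortical level (log2 fold change -1.37 ± 0.224 (SE), adjusted p = 0.00042). Kcnj4 (log2 fold change -1.18 ± 0.178 (SE), adjusted p = 0.000196), Kcnk2 (log2 fold change -0.98 ± 0.128 (SE), adjusted p = 4.75e-05) and Kcnv1 (log2 fold change -0.88 ± 0.163 (SE), adjusted p = 0.00114) were also lower in hippocampus. Kcnf1 followed at -0.82 (adjusted p = 0.00336).

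Among GA-Camk2a mice 21 of 59 members tested differed between the tissues, 13 higher (22%) and 8 lower (13.6%), against 33.2% of 13098 genes, 17.3% higher and 15.9% lower, a share near that of all genes. Without the 3 libraries high in choroid plexus markers 12 were higher and 3 lower, and without those high in Rorb 11 and 3. Kcng2, Kcnn2, Kcnn3, Kcnq1ot1 and Kcnq3 were higher in hippocampus in both genotypes, 55.6% of the 9 called higher in controls and 38.5% of the 13 in GA-Camk2a mice, against 65.4% and 36.2% over all genes called higher. As a share of the 59 members tested in both genotypes they were 8.47%, against 6.32% of all genes. Kcna6, Kcnab3, Kcnc4, Kcnj4 and Kcnv1 were lower in both, 45.5% of 11 and 62.5% of 8, against 64.5% and 34% over all genes called lower, and 8.47% of the 59 against 5.45%, although for Kcnab3 in GA-Camk2a mice the value in batch 2 alone was 0.051 (log2, adjusted p = 0.949 in edgeR). Some of these calls were not stable when 1 library was left out, that of Kcnn3 in GA-Camk2a mice being lost in 7 of 12 fits, that of Kcnq3 in controls in 4 of 9, and those of Kcnc4 and Kcnab3 in GA-Camk2a mice in 3 and 1 of 12. The GA-Camk2a calls of Kcnab3, Kcnc4, Kcnn3 and Kcnv1 were also lost without the libraries high in choroid plexus markers or in Rorb. That of Kcnv1 was lost in either batch alone as well, and those of Kcnc4 and Kcnn3 in DESeq2. Kcnq1ot1 differed most by adjusted p in GA-Camk2a mice, at 40.7 ± 7.31 CPM (SD, n = 6) in cortex and 182 ± 29.1 CPM (SD, n = 6) in hippocampus (log2 fold change 2.02 ± 0.0895 (SE), adjusted p = 1.64e-10).

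**Figure D4:**
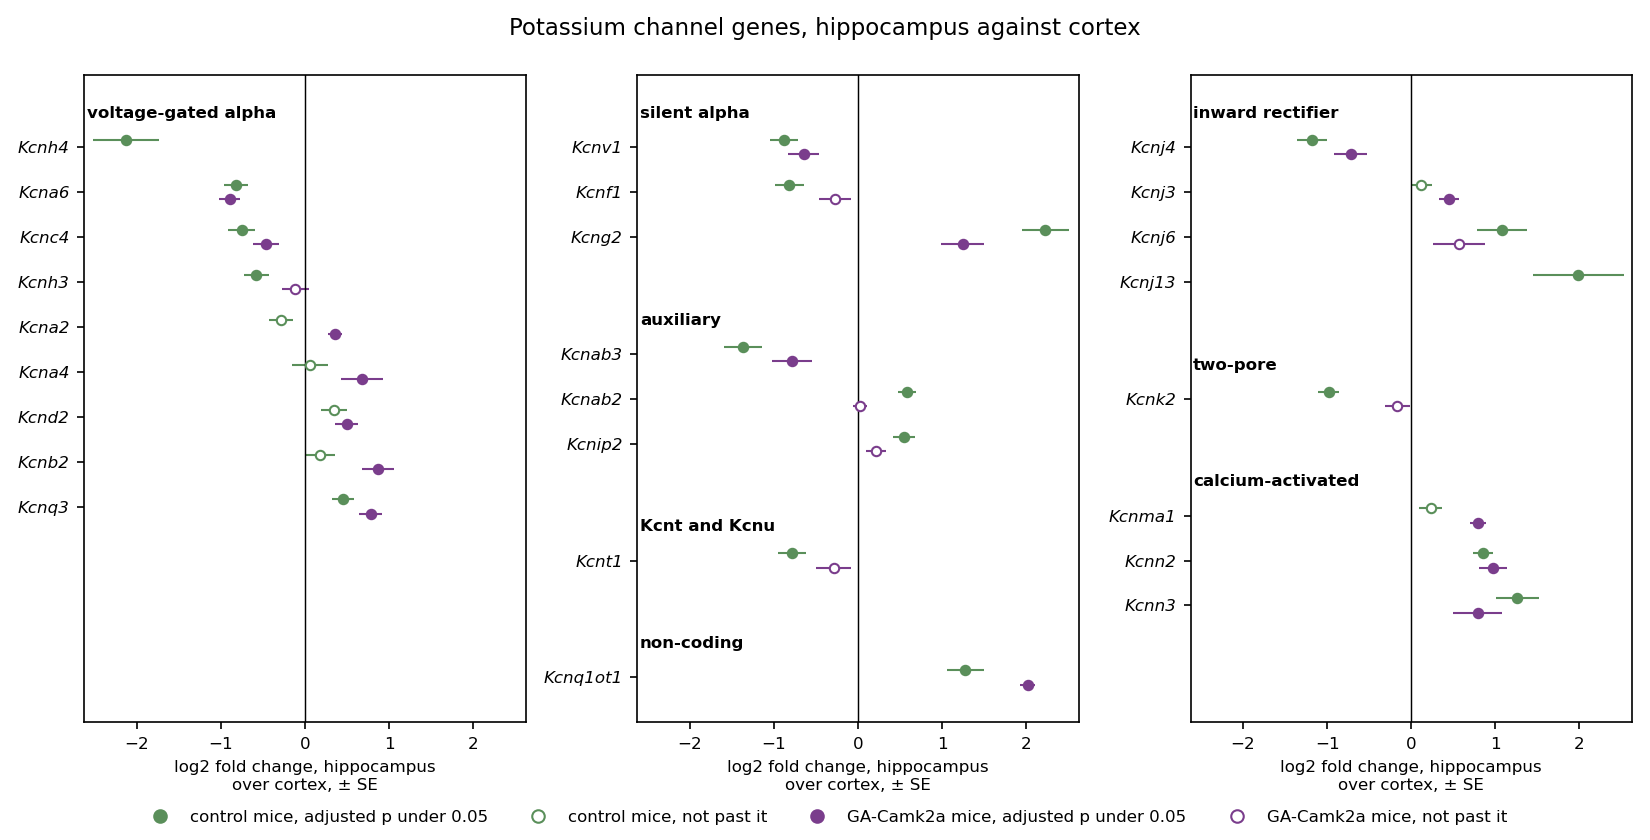
Log2 fold change of hippocampus against cortex in controls and in GA-Camk2a mice for the members named in the text that were called in either, from edgeR, with bars of 1 standard error and filled points for an adjusted p under 0.05. Kcng2 and Kcnq1ot1 lie right of 0 in both genotypes, and Kcnab3, Kcnj4 and Kcnv1 left of 0.

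Kcnj13 and Kcne2, an inward rectifier and an auxiliary subunit of choroid plexus epithelium, were highest in the hippocampus libraries rich in choroid plexus transcripts. Kcnj13 was called higher in control hippocampus than in control cortex (log2 fold change 1.99 ± 0.537 (SE), adjusted p = 0.0169), a call lost without cortical control mouse 37 or hippocampal control mouse 20 or 37 (adjusted p up to 0.082). That call was also lost in DESeq2, in limma-voom and in batch 2 alone. In the 7 hippocampus libraries with Ttr, the transthyretin transcript of that epithelium, at 9465 to 55186 CPM, Kcnj13 ranged from 4.87 to 31.2 CPM and Kcne2 from 5.88 to 27.9 CPM. In the 3 with Ttr at 1786 to 1949 CPM, Kcnj13 ranged from 2.00 to 2.85 CPM and Kcne2 from 1.14 to 1.33 CPM. Cortex libraries held 1.80 to 12.3 CPM of Kcnj13 and 0.583 to 3.90 CPM of Kcne2. Neither passed between the genotypes in hippocampus, at 0.23 (adjusted p = 0.868) for Kcnj13 and 0.53 (adjusted p = 0.64) for Kcne2. Kcnj13 shares exon bases on the opposite strand with Gigyf2.

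**Figure D5:**
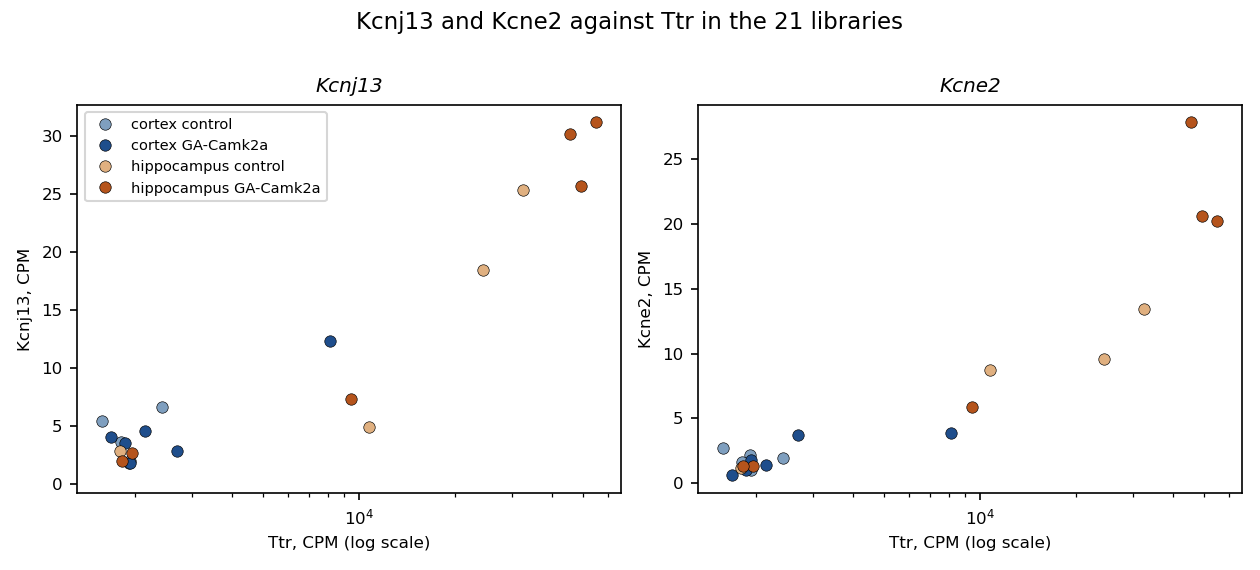
CPM of Kcnj13 and Kcne2 against CPM of Ttr (log axis) in every library, by tissue and genotype. The 3 hippocampus libraries low in Ttr hold at most 2.85 CPM of Kcnj13, within the cortical range, and those high in Ttr reach 31.2 CPM.

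Among genes for proteins that bind or anchor potassium channels, those called were all lower. Of 29 listed partners, 22 were tested in cortex, where 10 fell, with a median of -0.359, and 25 in hippocampus, where 8 fell, with a median of -0.178, while 6.17% and 5.97% of all genes tested were called lower. The other partners tested did not pass. Lingo1, which binds the large-conductance channel, changed by -0.74 ± 0.105 (SE), adjusted p = 4.06e-05 in cortex and by -0.67 ± 0.128 (SE), adjusted p = 0.00313 in hippocampus. Akap5, the anchoring protein that ties kinases to Kcnq channels, changed by -0.68 ± 0.218 (SE), adjusted p = 0.0443 and -0.57 ± 0.113 (SE), adjusted p = 0.0039, a cortical call lost in 7 of 11 fits without 1 library, and in control cortex it held 4139 to 5443 CPM in batch 1 and 735 to 784 CPM in batch 2. Dlg4 at -0.47 and -0.54, Lgi1 at -0.42 and -0.51, and Ank3 at -0.41 and -0.36, which organise channels at synapses and the axon initial segment, fell in cortex and hippocampus respectively. Calm2, a gene for calmodulin, which sits on Kcnq and Kcnn channels, fell too, at -0.29 and -0.36, and Calm3 fell in hippocampus at -0.36. The cortical calls of Calm2, Dlg1 and Dlg4 were lost in 4 to 9 of 11 fits without 1 library, and those of Ank3 and Lgi1 without control mouse 31 (for Lgi1 also without GA-Camk2a mouse 35). The hippocampal call of Ank3 was lost without control mouse 11 or 31 (adjusted p up to 0.0901), and those of Ank3 and Calm2 without the libraries high in choroid plexus markers or in Rorb. Adam23 at -0.62 and Dlg1 at -0.37 were called in cortex and not in hippocampus.

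Pumps and cotransporters keep the potassium gradient on which the channels draw. In cortex Atp1b3, a beta subunit of the sodium pump, rose (0.42 ± 0.0999 (SE), adjusted p = 0.00646). In hippocampus Atp1b1, another beta subunit, fell (-0.34 ± 0.088 (SE), adjusted p = 0.0201), as did the neuronal cotransporter Slc12a5 (-0.33 ± 0.0978 (SE), adjusted p = 0.0426). Atp1b3 (0.41 ± 0.0878 (SE), adjusted p = 0.00678) and Slc12a2 (0.53 ± 0.147 (SE), adjusted p = 0.0309) rose there. The calls of Slc12a2 and Slc12a5 were lost in 6 and 7 of 10 fits without 1 library, and that of Atp1b1 without control mouse 31 (adjusted p = 0.0839). All 3 calls were also lost without the libraries high in choroid plexus markers or in Rorb. The medians over the tested genes of the list, 10 genes long, were -0.0783 in cortex and 0.0435 in hippocampus.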

How the data were processed

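The authors deposited 1 table of raw counts per gene for the 21 prime-seq libraries, aligned to GRCm39. The submitters' processing notes name FastQC 0.11.8, cutadapt 1.12, STAR and DESeq2 1.44, and the study's list of software also names zUMIs. Whether the counts are molecules or reads, whether introns were counted and whether strand was used are not given in the sources used here. On the GENCODE exon annotation of another build, 26 of the 71 members share exon bases with another gene, 2 of them on the same strand, so their counts may hold reads of both.

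Gene IDs were paired with symbols through a table of gene names, which matched 43308 of 64361 rows. CPM are counts scaled by a library's total. Each comparison was fitted over all genes with edgeR 4.0.16 (TMM scaling, filterByExpr with a minimum count of 10, quasi-likelihood F-test, batch as a term) in R 4.3.3. P-values were adjusted by Benjamini-Hochberg over all genes tested, with a threshold of 0.05, and the standard error is the fold change divided by the square root of F. Batch is the batch given in the labels (12 libraries in batch 1, 9 in batch 2), and both genotypes of both tissues were in both. The study's methods name DESeq2, which was run without covariates as an alternative (version 1.42.0), beside limma-voom 3.58.1. The scripts were tested on simulated counts. No 2 replicates were identical (46 pairs, chi-square per degree of freedom 2.10 to 15.1).

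Mouse numbers pair cortex and hippocampus because they come from the same animal. The deviations of the 10 such pairs from their group means, with batch not removed, correlated at -0.229 to 0.284, and 5 of the 10 correlated best with their own animal. Those 5 (mice 11, 20, 30, 34 and 35, at 0.142 to 0.284) had both tissues in the same batch. Mice 16, 23, 31, 37 and 41, with the tissues in different batches, ranged from -0.229 to -0.0667. These correlations therefore do not measure pairing by animal apart from batch.

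Named with values are all members called in a genotype comparison or in the difference, the 2 members of each subfamily with the most counts, the 6 largest rises and falls between tissues in controls, and called genes of the partner and transport lists. For the 8 largest changes of each tissue and those called in both, libraries are given singly or as ranges. Kcna6, Kcnc1, Kcne2, Kcnk16 and the genotype values of Kcnh4 and Kcnj13 were added after their values were seen. Some members and listed genes that meet these rules are not reported here, though counts, medians and sums include them. The members and all lists were chosen with earlier results of these data known.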

Additional observations from a re-analysis of the deposited data

Results flagged for a closer look

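Among 15 of the called members, looked at library by library, 60 groups were tested for a sample apart from the rest, and 4 stood apart, where chance gives about 1 group in 20. In control cortex, mouse 31 held 15.0 CPM of Kcns2 against 10.5 to 11.1 CPM in the other 4. Mouse 37 held 31.9 CPM of Kcnv1 in control cortex against 41.8 to 44.9 CPM, still above all GA-Camk2a cortex libraries. In control hippocampus, mouse 31 held 23.9 CPM of Kcng2 against 14.6 to 15.9 CPM. GA-Camk2a mouse 16 held 19.8 CPM of Kcnip2 in cortex against 32.1 to 37.8 CPM in the other 5. Kcnab2 was the 1 member that passed the edgeR test of a difference in genotype effect between the tissues, by -0.58 on the log2 scale, a call lost in 18 of 21 fits without 1 library and in 7 of 12 other fits.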

How the results depend on the processing

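Counts of members called were within 1.5 times those reported under another scaling, no filter on low counts, no batch term, DESeq2, limma-voom, 1 fit over all libraries or another CPM minimum, except for the difference between tissues. There the count of 1 became 2 with DESeq2's size factors, DESeq2 or limma-voom, and 0 with no batch term, with thinned counts, in batch 1 or batch 2 alone, and without the libraries high in choroid plexus markers or in Rorb (both chosen after seeing the data). With no filter on low counts that count stayed at 1, but the call was Kcnq1ot1, higher, in place of Kcnab2, lower. Thinning all libraries to the smallest total left 8 members called in cortex, 2 in hippocampus, 7 of the control and 10 of the GA-Camk2a calls between tissues, so depth limits these counts. Batch 1 alone gave 15, 2 and, in GA-Camk2a mice between tissues, 12, and batch 2 alone gave 2, 4, 12 in controls and 6 in GA-Camk2a mice, with fewer samples in each. The lowest and highest counts without 1 library were 13 (without control mouse 31) and 26 in cortex, 8 and 12 in hippocampus, 0 and 2 for the difference, 17 and 25 in controls and 18 and 22 in GA-Camk2a mice. For Kcnab3 between tissues in GA-Camk2a mice, batch 2 alone turned the sign, at 0.051 (log2), and the cause was not tested.

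Of 23 cortical calls 13 held without any 1 library and 2 (Kcnv1 and Kcnk2) also in all other fits, and of 10 hippocampal calls 7 and 2 (Kcnab2 and Kcnip2). With the mouse as a replicate block the counts were 1 for the difference (Kcnab2), 21 in controls and 20 in GA-Camk2a mice, which moved no count by over 1.5 times. No block could be made between genotypes, which share no mouse. Of members named as not passing between genotypes, Kcnip2, Kcnq1ot1 and Kcnt2 in cortex and Kcna1, Kcnab1, Kcne1l, Kcnj3, Kcnq1ot1 and Kcnq3 in hippocampus passed in 1 or 2 other fits.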

Other observations

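Kcnk16, a two-pore channel gene with few counts, differed between the batches given in the labels. It held 0 to 0.456 CPM in the 12 libraries of batch 1 and 3.34 to 13.5 CPM in the 9 of batch 2, with no overlap, and was the 1 member of 71 that did so. Of the 15362 genes tested in any comparison, 126 lay higher and 11 lower in all batch 2 libraries than in all batch 1 libraries.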
